A study of Mus musculus with 4 samples.

Results

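Rab genes encode small GTPases that direct membrane traffic between the organelles of a cell. All protein-coding genes of the GENCODE M21 mouse annotation whose symbol is Rab, a number and at most 2 further letters or digits were taken, which gave 61 genes of 21951. Of these, 59 encode Rab GTPases. The other two met the spelling only: Rab3ip, which encodes an exchange factor for Rab8, and Rab5if, which encodes a Rab5-interacting factor. In both replicates, 32 of the 61 genes carried an m6A peak summit in an exon, and 23 carried none in either replicate.

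The cells were c-Kit-enriched foetal liver cells of C57BL/6 mice, which the study's methods give as Ythdf2 CTL cells. CTL stands elsewhere in the study for Ythdf2 fl/fl mice without Cre. In that allele exon 2 is flanked by loxP sites and GFP is inserted behind the start codon, so that the gene is not deleted and its product is a functional GFP fusion. RNA fragments that carry N6-methyladenosine were captured with an antibody and sequenced (meRIP-seq). The data were 1 list of peaks for each of 2 biological replicates of the m6A immunoprecipitation (IP), and no reads of the IP or of the input libraries were used here. There was 1 condition and no second group, so every comparison is a description, and shares come with exact Clopper-Pearson 95% intervals that cover counting error only.

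A Rab GTPase is active when it binds GTP and inactive when it binds GDP. Guanine nucleotide exchange factors switch it on, GTPase-activating proteins switch it off, and the GTP form binds effectors such as tethers and motor adaptors. A lipid tail added by Rab geranylgeranyl transferase holds the protein on its membrane, and each Rab marks its own compartment. In blood cells Rab proteins carry receptors such as the transferrin receptor back to the surface and bring granules to it. N6-methyladenosine is placed on adenosines in the motif DRACH (D being any base but C, R a purine and H any base but G), with GGAC as its best known core, and YTHDF2 is a reader protein that leads such transcripts to decay.

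The places that carried the signal in the Rab transcripts are shown first. Members were ranked by the lower of the 2 replicates' −log10 q of their strongest shared peak. Of the top 12, 5 had the same GGAC within 50 nt of that peak's summit in both replicates. This measure was not taken over the shared peaks of all genes, so the sites are shown as places only. Their sequences are from GRCm38 on the sense strand of the gene, 5′ to 3′, and the capitals mark GGAC. Rab43 lies at chr6:87792617-87792644 on the minus strand, in the last exon before the stop codon. Rab23 lies at chr1:33739706-33739733 on the plus strand, in the 3′ UTR. Rab22a lies at chr2:173701283-173701310 on the plus strand and Rab30 at chr7:92836022-92836049 on the plus strand, both in the 3′ UTR within 200 nt of the stop codon. Rab27a lies at chr9:73095797-73095824 on the plus strand, in the 3′ UTR.
Rab43: ccacatccagctGGACagcaaggacatt
Rab23: ttttaccctgatGGACcatgagggatgg
Rab22a: acttctgtcagtGGACtctggcgtgcaa
Rab30: gctcccgctcttGGACcttctgactcct
Rab27a: tgcctcaacacaGGACagccctagagtc

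In each of the 5 the base after GGAC was A, C or T, so that the core stood in a full DRACH. The A of GGAC lay 5 and 9 nt downstream of the summit in Rab23, 25 and 20 nt downstream in Rab22a, and 39 nt downstream in both replicates of Rab43. It lay 20 and 33 nt upstream in Rab30 and 36 and 37 nt upstream in Rab27a. The median Rab peak was 341 and 333 bp wide, so that the modified base itself is not resolved.

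For 3 further members of the 12 the nearest shared motif within 50 nt of both summits was a DRACH other than GGAC, whose 5 bases are in capitals. Rab33b lies at chr3:51493544-51493571 on the plus strand in the coding sequence, Rab40c at chr17:25883527-25883554 on the minus strand near the stop codon, and Rab8b at chr9:66847584-66847611 on the minus strand near the stop codon.
Rab33b: gggaaataaatgTGACTtgagaagcgcc
Rab40c: ctgtgtgcaggaAGACTtggctacacaa
Rab8b: agagcacccccgGAACTcacacagacca

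No single DRACH lay within 50 nt of both summits of the strongest peak in Rab14, Rab44, Rab35 and Rab12. The weaker shared peaks of Rab44 in exons 5 and 9 each had the same GGAC within 50 nt of both summits. The strongest peaks of Rab14 and Rab44 lay at the start codon, and those of Rab35 and Rab12 near and beyond the stop codon.

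A pair of closely related Rabs shared sequence at their summits. Rab22a and Rab31, which act at early endosomes and in sorting at the trans-Golgi network, each had a shared peak over GGAC. The Rab31 site lies at chr17:65652083-65652110 on the minus strand, with summits 2320 and 2301 nt past the stop codon, and capitals again mark GGAC.
Rab31: ctccgccataatGGACtctggcttgtgt

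Both windows hold the run TGGACTCTGGC, which is 11 bases long. Over all summits placed on 1 protein-coding transcript, that run lay within 50 nt of 3 of 10828 in replicate 1 and 4 of 10460 in replicate 2. These counts include the Rab22a and Rab31 summits from which the run was taken. The pair was noticed after the sequences were seen, so nothing is read from the rarity of the run. In both genes the A of GGAC lay within 25 nt of both summits.

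Counts of members by replicate were close to each other. A summit lay in an exon of 35 Rab genes in replicate 1 and of 35 in replicate 2. Over all protein-coding genes the shares were 34.4% and 33.5%. The 32 Rab genes with a summit in both replicates were 52.5% of the members (95% interval 39.3% to 65.4%), beside 30.9% of all protein-coding genes. In either replicate there were 38 Rab genes (62.3%, 49.0% to 74.4%), beside 37.1% of all. Without the 2 genes that are not Rab GTPases, the count in both replicates was 30 of 59 (50.8%). The lists of all genes hold many that the cells may not transcribe, and in a bulk sample a gene without a peak may lack the transcript, the reads or the modification, which cannot be told apart here.

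The Arf and Arl genes, another small GTPase family that was chosen after the values were seen, were set beside them. In both replicates 12 of 26 (46.2%, 26.6% to 66.6%) carried a summit. That interval holds the Rab share, and the difference between the families was not tested.

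**Figure D1:**
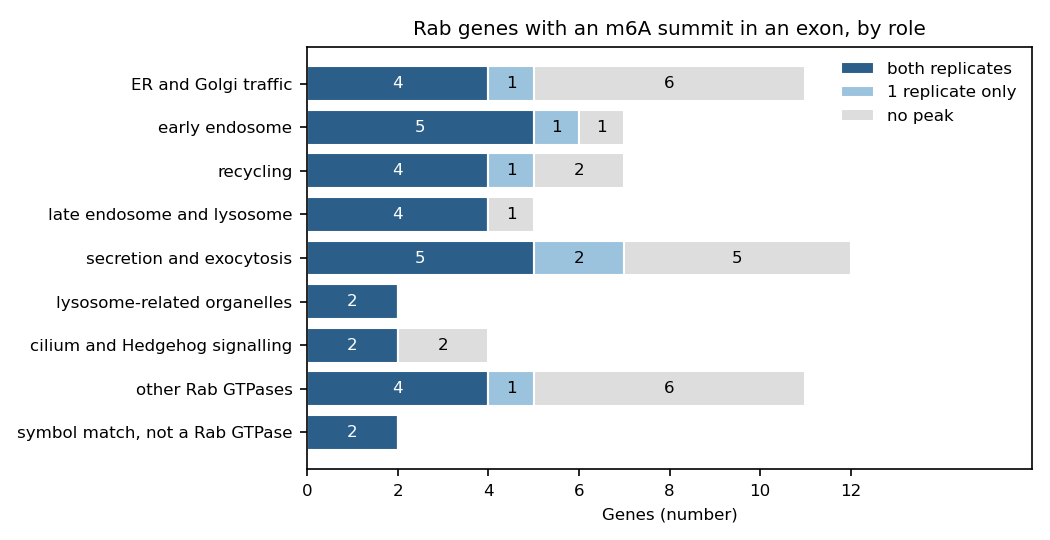
Number of Rab genes (horizontal axis) in each role (vertical axis) with an exonic m6A summit in both replicates (dark blue), in 1 replicate only (light blue) or in neither (grey). Early endosome genes stood at 5 of 7 in both replicates, and ER and Golgi genes at 4 of 11.

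By role, the members with a summit in both replicates ran from 4 of 11 genes of ER and Golgi traffic to 5 of 7 of the early endosome and 4 of 5 of the late endosome, and to both genes of lysosome-related organelles, with intervals that all overlap. Of 7 early endosome genes, 5 had a summit in both replicates (Rab5a, Rab17, Rab21, Rab22a and Rab31), Rab5c had one in replicate 2 only and Rab5b had none. Of 5 late endosome and lysosome genes, 4 had a summit in both replicates (Rab7, Rab7b, Rab9 and Rab29), and Rab9b had none. Recycling genes stood at 4 of 7 (Rab4a, Rab11b, Rab14 and Rab35), with Rab11a in replicate 1 only and none in Rab4b and Rab25. Of 11 genes of ER and Golgi traffic, 4 had a summit in both replicates (Rab6a, Rab30, Rab33b and Rab43), Rab1b had one in replicate 1 only, and Rab1a, Rab2a, Rab2b, Rab6b, Rab18 and Rab33a had none.

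Secretion genes stood at 5 of 12 in both replicates (Rab3d, Rab8a, Rab8b, Rab27a and Rab27b). Rab13 had a summit in replicate 1 only and Rab10 in replicate 2 only, and none was found in Rab3a, Rab3b, Rab3c, Rab26 and Rab37. Rab3a, Rab3b and Rab3c are known from the synaptic and hormone vesicles of neurons and endocrine cells. Both genes of lysosome-related organelles, Rab32 and Rab38, which bring enzymes to melanosomes, had a summit in both replicates. Of 4 genes tied to the cilium and Hedgehog signalling, Rab23 and Rab28 had a summit in both and Rab34 and Rab36 none. Among the remaining 11 GTPases, Rab12, Rab40c, Rab42 and Rab44 had a summit in both replicates, Rab20 in replicate 2 only, and Rab15, Rab19, Rab24, Rab39, Rab39b and Rab40b none. Rab3ip and Rab5if both had a summit in each replicate.

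Close relatives were often split in status, beside 50.8% of all 59 Rab GTPases with a summit in both replicates. At that share many sets would be split in any case, and an excess of split sets was not tested. Of 14 sets of Rab GTPases that bear the same number, with 31 genes in all, 3 had a summit in both replicates for every gene (Rab7 with Rab7b, Rab8a with Rab8b, Rab27a with Rab27b). In 3 sets no gene had a summit in both replicates (Rab1, Rab2 and Rab39), and 8 sets were split. The split Rab5 and Rab11 sets included Rab5c and Rab11a, each with a summit in 1 replicate only. Rab3d stood apart from Rab3a, Rab3b and Rab3c, Rab6a from Rab6b, Rab9 from Rab9b, Rab33b from Rab33a and Rab40c from Rab40b. No 51 nt stretch around the 86 placed Rab summits occurred in the transcript of another gene, so that none of them lay in a stretch of that length shared with a relative. Of 4 named Rab pseudogenes, 0 had a summit.

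Even where 2 relatives both had peaks, these could lie at different ends. Rab7, which drives fusion of late endosomes with lysosomes, had 1 peak per replicate, 140 and 120 nt upstream of the start codon, at 5.20-fold and 5.40-fold enrichment of IP over background. Rab7b had none there, but 2 in its 3′ UTR in each replicate, at 655 and 1545 nt past the stop codon in replicate 1 and 676 and 1548 nt in replicate 2. Rab11a and Rab11b, the GTPases of the recycling endosome, had peaks just upstream of the start codon, that of Rab11a in replicate 1 only. Rab11b had a further peak in the 3′ UTR.

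The Rab genes carried 47 exonic peaks in replicate 1 and 46 in replicate 2. Most had 1 peak, which held for 25 and 26 genes. Of the peaks, 39 of 47 (83.0%, 69.2% to 92.4%) and 38 of 46 (82.6%, 68.6% to 92.2%) overlapped a peak of the other replicate. Over all exonic peaks the shares were 84.2% and 86.8%. The median Rab peak was enriched 4.27-fold in replicate 1 and 5.0-fold in replicate 2, beside 4.18-fold and 4.39-fold over all exonic peaks. It rested on 64 and 55.5 IP reads at the summit, over a background equal to 14 and 7.90 control reads. Over all exonic peaks these medians were 68 and 66 IP reads over 17 and 13 control reads. Numbers of reads were computed from the fold enrichment and the p-value of each peak. Background is thus not a count and need not be a whole number. A fold is the ratio after 1 is added to IP signal and background, so it differs from the ratio of the reads.

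**Figure D2:**
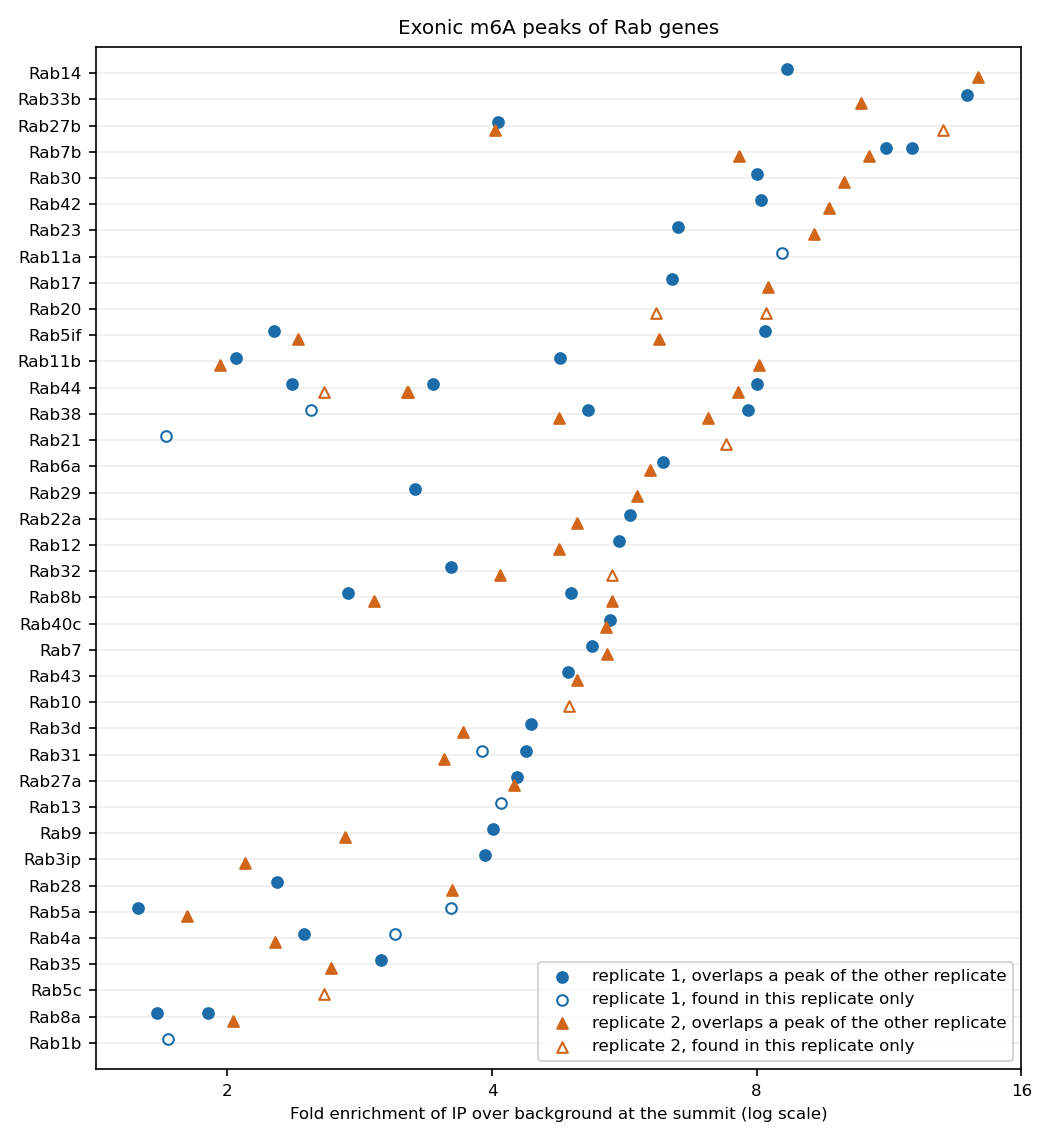
Fold enrichment of IP over background at the summit (horizontal axis, log scale) of every exonic peak of the 38 Rab genes with any peak (vertical axis, ordered by the highest fold). Circles are replicate 1 and triangles replicate 2, filled where the peak overlaps one of the other replicate and open where it was found in 1 replicate only. Folds run from 1.58 (Rab5a) to 14.3 (Rab14).

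Among 37 one-to-one pairs of overlapping Rab peaks the summits lay a median of 15 nt apart. Fold enrichment of all 37 pairs was within 2-fold between replicates. The log2 difference, replicate 2 minus replicate 1, was 0.02 ± 0.38 (mean ± SD over pairs), from −0.91 in Rab3ip to 0.84 in Rab29, and 16 of 37 were higher in replicate 2. Over all 9766 exonic pairs the SD was 0.46, and 9335 were within 2-fold.

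The strongest shared peaks were in genes of several roles. Rab33b, a Golgi GTPase that also takes part in autophagosome formation, led the list with 13.9-fold enrichment in replicate 1 and 10.5-fold in replicate 2. The peak stood at chr3:51493338-51494164 in replicate 1, with 76 and 74 IP reads over 5.20 and 5.80 control reads. Its summit lay in the coding sequence, in the last exon, 257 and 217 nt before the stop codon. Rab43, another Golgi GTPase, was enriched 4.88-fold and 5.0-fold at chr6:87792175-87792936, with 136 and 125 IP reads and the summit 77 nt before the stop codon in both replicates. This summit also lay in an exon of Gm45140, and the peak lists carry no strand, so the Rab43 peak is uncertain.

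Rab23, a negative regulator of Hedgehog signalling, was enriched 6.51-fold and 9.31-fold at chr1:33739190-33740015, with 76 and 85 IP reads. Its summit lay 325 and 321 nt past the stop codon, over the GGAC shown above. Rab22a was enriched 5.74-fold and 5.0-fold at chr2:173701006-173701425, with 120 and 104 IP reads and the summit 155 and 160 nt past the stop codon. Rab30, a Golgi GTPase, was enriched 8.01-fold and 10.1-fold at chr7:92835666-92836303, on 42 and 37 IP reads. Thus Rab30 had a higher fold than Rab22a on fewer IP reads, its background being 5 and 2.60 control reads against 23 and 19.

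Rab14, which moves cargo between the trans-Golgi network and early endosomes, had the highest fold of any Rab peak. It was enriched 8.65-fold and 14.3-fold at chr2:35200847-35201089, with 53 and 44 IP reads over 6 and 2 control reads. The summit lay in the first exon, 200 and 177 nt upstream of the start codon, and Rab14 had no peak elsewhere in its exons. Rab44, an atypical large Rab with an EF-hand region, was enriched 8.01-fold and 7.62-fold at chr17:29120686-29120958, at its start codon, with 70 and 63 IP reads. It also carried 2 shared peaks in its coding sequence, in exons 5 and 9 of 14, at 2.37-fold and 3.20-fold and at 3.42-fold and 3.21-fold. Its coding sequence of 2922 nt was the longest of the members with a summit in both replicates.

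Rab40c, whose protein carries a SOCS box and joins a ubiquitin ligase, was enriched 5.45-fold and 5.40-fold at chr17:25883332-25883831, on 72 and 67 IP reads. Rab27a, which docks lytic granules and melanosomes, was enriched 4.27-fold and 4.23-fold at chr9:73095314-73096014, on 89 and 87 IP reads. Values of both genes differed little between the replicates. Rab12, which takes the transferrin receptor to degradation, was enriched 5.58-fold and 4.76-fold at chr17:66494801-66495820, on 64 and 69 IP reads.

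Rab8b and Rab35 ranked high on many reads rather than on a high fold. Rab8b, which carries vesicles to the plasma membrane, was enriched 2.74-fold and 2.94-fold at chr9:66847336-66847894, with 148 and 147 IP reads over 61 and 47 control reads. Rab35, which acts in fast endocytic recycling, was enriched 2.99-fold and 2.63-fold at chr5:115645515-115646431, with 177 and 170 IP reads over 67 and 61 control reads. Rab8b had a second shared peak at its start codon, at 4.92-fold and 5.48-fold on 34 and 45 IP reads. The lowest folds of shared peaks likewise stood over high backgrounds. Rab5a, the early endosome GTPase, was at 1.58-fold and 1.80-fold near its stop codon over 48 and 36 control reads. Rab8a was at 1.90-fold and 2.03-fold in its 3′ UTR over 88 and 67 control reads.

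**Figure D3:**
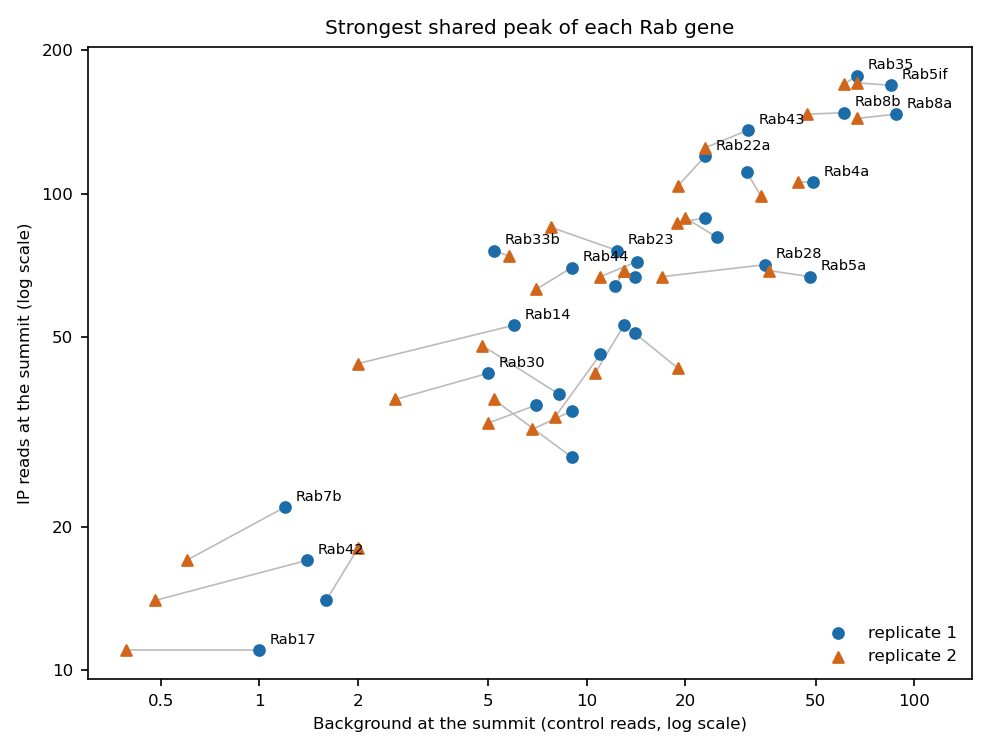
IP reads (vertical axis, log scale) against computed background, expressed as control reads (horizontal axis, log scale), at the summit of the strongest shared peak of 31 Rab genes. Circles are replicate 1, triangles replicate 2, and a grey line joins the replicates of a gene. IP reads of these peaks run from 11 in Rab17 to 177 in Rab35, and Rab33b stands above genes with the same background.

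Peaks on few reads had high folds over almost no background. Rab17, an epithelial endosome GTPase, was enriched 6.40-fold and 8.24-fold on 11 IP reads in each replicate, over 1 and 0.391 control reads. Rab42 was at 8.10-fold and 9.68-fold on 17 and 14 IP reads. The second peak of Rab7b was at 11.2-fold and 10.7-fold on 22 and 17 IP reads. Background was below 2 control reads for 6 of 47 Rab peaks in replicate 1 (12.8%) and 9 of 46 in replicate 2 (19.6%). Over all exonic peaks the shares were 9.83% and 11.2%.

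Members found in 1 replicate only had 1 peak each except Rab20. In replicate 1, Rab11a was enriched 8.54-fold at chr9:64737614-64737847, on 15 IP reads over 1 control read. Rab13, which works at epithelial junctions, was enriched 4.10-fold at chr3:90225493-90225775, on 21 IP reads. Rab1b, the ER-to-Golgi GTPase, was enriched 1.71-fold at chr19:5104870-5105070, on 56 IP reads over 37 control reads. The Rab1b peak was the weakest of these, with a −log10 q of 1.80.

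In replicate 2, Rab10, which sends vesicles with glucose transporters to the surface, was enriched 4.89-fold at chr12:3309783-3310014, on 38 IP reads. Rab5c was enriched 2.58-fold at chr11:100720109-100720318, on 110 IP reads over 40 control reads. Rab20 had peaks at chr8:11453920-11454120 and chr8:11454304-11454511, enriched 8.19-fold and 6.15-fold on 11 and 8 IP reads. No peak was called at these places in the other replicate, whose reads there were not analysed here.

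Rab21 counted in both replicates but not with the same peak. In replicate 1 its summit lay 32 nt past the stop codon at 1.70-fold, on 87 IP reads. In replicate 2 it lay in the first exon, 180 nt upstream of the start codon, at 7.38-fold on 16 IP reads. Thus 31 members had peaks that overlapped between the replicates. Rab27b had, beside its shared peak at the stop codon, a summit in replicate 2 only at 13-fold, in an exon that the chosen transcript does not hold. That peak rested on 18 IP reads over the same lowest background as Rab17.

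Positions were compared on the transcript with the longest coding sequence, where summits within 200 nt of the stop or start codon were given to that codon. A total of 44 Rab summits in replicate 1 and 42 in replicate 2 could be placed. At the stop codon lay 37.1% ± 5.36 of Rab summits (SD, n = 2 replicates), in the 3′ UTR 23.3% ± 0.765, at the start codon 20.9% ± 0.689, in the coding sequence 12.8% ± 2.07 and in the 5′ UTR 5.84% ± 1.84. Over all placed summits the means were 30.2% at the stop codon, 17.3% in the 3′ UTR, 15.0% at the start codon, 33.9% in the coding sequence and 3.50% in the 5′ UTR. The coding share of Rab summits was 11.4% (3.79% to 24.6%) in replicate 1 and 14.3% (5.43% to 28.5%) in replicate 2, and these intervals lie below the shares over all summits of 34.0% and 33.8%.

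Rab transcripts have little coding sequence away from the codons. In the 37 Rab genes with a placed summit the median coding length was 645 nt, beside 1497 nt over 7487 genes. Coding sequence more than 200 nt from both codons made up 10.4% of the bases of those Rab transcripts and 40.4% of those of all. Thus the coding share of Rab summits was close to the coding share of their bases. The 3′ UTR held 62.7% of Rab bases but 23.3% of Rab summits, and the surroundings of the stop codon 12.7% of bases but 37.1% of summits. For all genes those values were 37.8% of bases and 17.3% of summits, and 10.2% of bases and 30.2% of summits.

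**Figure D4:**
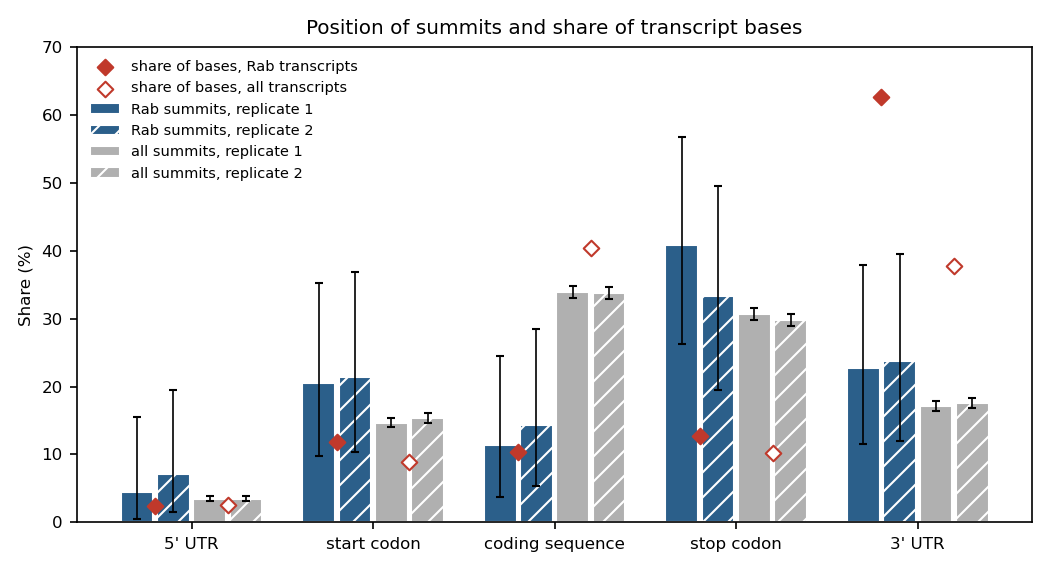
Share of placed summits (bars, %) in each region for Rab genes (blue) and all protein-coding genes (grey), plain for replicate 1 and hatched for replicate 2, with exact 95% intervals. Diamonds give the share of transcript bases in the same region, filled for Rab genes and open for all. Bars of Rab summits at the stop codon (40.9% and 33.3%) stand above the filled diamond (12.7%), and those in the 3′ UTR below it.

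In terms of exons, 32 of 47 summits in replicate 1 and 29 of 45 in replicate 2 lay in the last exon, 9 and 11 in the first, and 6 and 5 in an internal one. The last exon held a summit in both replicates in 25 genes and the first exon in 7 (Rab5if, Rab6a, Rab7, Rab8b, Rab11b, Rab14 and Rab38). In Rab6a, Rab7 and Rab14 of these the first exon held the only peaks. Internal exons held summits in both replicates in Rab38 and Rab44 alone. Exons of at least 400 nt held 70.2% and 71.1% of Rab summits, beside 86.7% and 86.8% over all. First exons held 19.1% and 24.4% of Rab summits and 12.5% and 13.2% of all. Last exons held 68.1% and 64.4% of Rab summits and 61.6% and 61.0% of all, and internal exons 12.8% and 11.1% of Rab summits and 25.9% and 25.8% of all. The Rab shares here rest on all 47 and 45 summits, whereas those over all use only summits in exons of 1 gene. These differences were not tested. The summit of the Rab11b first exon also lay in Gm17251, and the 3′ summit of Rab5if also lay in Sla2.

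**Figure D5:**
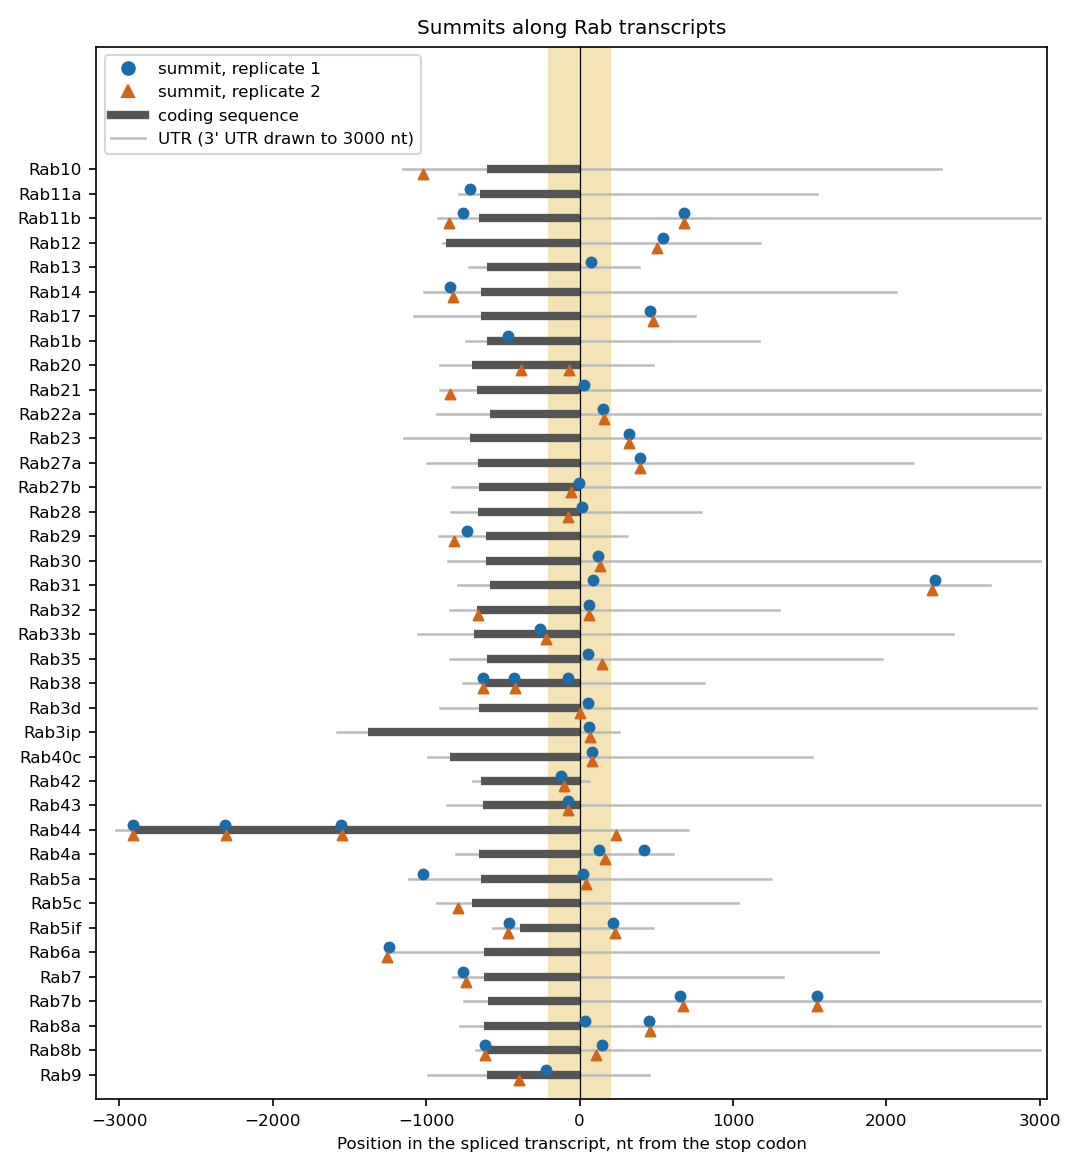
Chosen transcripts of the 38 Rab genes with a peak, aligned at the stop codon (horizontal axis, nt in the spliced transcript). Thick bars are coding sequence, thin lines UTRs (3′ UTRs drawn to 3000 nt), circles summits of replicate 1 and triangles of replicate 2, and the band marks 200 nt on either side of the stop codon. Summits cluster in the band and just past it, and a further set lies at the start of the coding sequence.

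GGAC lay within 50 nt of 25 of 44 placed Rab summits in replicate 1 (56.8%, 41.0% to 71.7%) and of 22 of 42 in replicate 2 (52.4%, 36.4% to 68.0%), beside 56.0% over all in each. The share was then taken by position in the transcript, with no test between positions. Downstream of the start codon region it was 23 of 33 (69.7%, 51.3% to 84.4%) and 19 of 30 (63.3%, 43.9% to 80.1%), and over all summits there 57.3% and 57.1%. At the 5′ UTR and start codon it was 2 of 11 (18.2%, 2.28% to 51.8%) and 3 of 12 (25%, 5.49% to 57.2%), and over all summits there 50.2% and 51.6%. The 2 replicates hold many of the same genes, so that these shares are not independent, and they rest on few summits.

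DRACH showed the same order in Rab genes and in all genes. It lay within 50 nt of 7 of 11 and 7 of 12 Rab summits at the 5′ end and of 32 of 33 and 28 of 30 elsewhere. Over all summits the shares were 80% and 79.9% at the 5′ end and 96.3% and 96.5% elsewhere. The 5′ summits without a DRACH in that window included those of Rab14 and Rab44 and the start codon peak of Rab8b, in both replicates. The median fold of the 5′ peaks was 6.26 and 5.94, beside 4.01 and 4.06 for Rab summits further downstream. Over all summits the median fold likewise was 5.20 and 5.71 at the 5′ end and 3.89 and 4.02 downstream. The higher folds stood on lower counts. In Rab genes the 5′ medians were 34 and 36.5 for IP reads, whereas downstream they were 72 and 69. Median background there rose from 7 to 20 control reads in replicate 1 and from 4.5 to 15 in replicate 2. Over all summits it rose from 9 to 22 and from 6.6 to 17. Whether the 5′ sites are more modified was not tested.

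Nearly every Rab GTPase has a stretch that can hold GGAC by its code alone. The G3 box, part of the nucleotide-binding pocket, contains a tryptophan followed by an aspartate, and the codons TGG and GAC together hold GGAC. Tryptophan and aspartate followed by any residue, alanine and glycine were found in 55 of 59 Rab GTPases. In 46 of them the codons were TGGGAC, and in the others TGGGAT, which holds no GGAC. The A lay a median of 202 nt past the start codon, in an exon with a median length of 119 nt, and 42 of the 46 sites were in exons under 400 nt.

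Although 22 of those 46 genes had a summit in both replicates, few of the summits were at this GGAC. Rab38 alone had summits within 50 nt of it in both replicates, at 14 and 21 nt, and its peak was at 5.14-fold and 4.76-fold with 67 and 69 IP reads. The site is shown as the only one of its kind, with GGAC in capitals. It runs from chr7:88430581 to position 88450485 on the plus strand, across the junction of exons 1 and 2. GGAC lies in exon 1 and both summits in exon 2, so that they are close in the spliced transcript only. The shared exon 1 peak of Rab38 ended before this GGAC, at position 88430496 in both replicates. GGAC thus lay inside neither that peak nor the peak in exon 2.
Rab38: cttgcagctctgGGACattgctggtcaa

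In 1 replicate each, Rab1b and Rab9 had a summit near it. The summit lay 49 nt upstream in Rab1b (replicate 1) and 23 nt downstream in Rab9 (replicate 2). In Rab9 the box lies in an exon of 1091 nt that also holds the stop codon, and in Rab33b, in an exon of 2877 nt, the summits were 168 and 208 nt from it. Sites without a summit may lack the reads, and Rab43 was not counted as its summit lay in 2 genes.

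In the wider set of 30 members whose strongest shared peak could be searched, 13 had the same GGAC within 50 nt of both summits. The share over the shared peaks of all genes was not computed, so the count is not read as a trait of Rab genes. In all 13 the base after it was A, C or T. Besides Rab43, Rab23, Rab22a, Rab30, Rab27a and Rab31 these were Rab38, Rab42, Rab4a, Rab8a, Rab3d, Rab17 and Rab3ip. In Rab3d the A lay 1 nt upstream of the summit in replicate 1, and in Rab42 it was the summit itself in replicate 2. In Rab4a the A lay 50 and 8 nt downstream. Other shared peaks of a gene were not counted. Among them, peaks of Rab44, Rab11b and Rab5if also had the same GGAC within 50 nt of both summits.

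Rab genes with and without peaks were set side by side in their annotation. The median 3′ UTR was 1962 nt in the 32 genes with a summit in both replicates and 1275 nt in the 23 without any. Median transcript length was 3124.5 and 2133 nt, and the median number of GGAC per transcript 11 and 8. Coding length was alike, with medians of 648 and 651 nt, and GGAC per kb was 4.47 and 4.13. The ranges overlapped widely, with 3′ UTRs of 65 to 8596 nt and 0 to 7628 nt. Over all protein-coding genes the median 3′ UTR was 1175 nt with a summit in both replicates and 536 nt without.

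The 3′ UTR length did not separate close relatives. Of 7 same-number sets that held both a gene with a summit in both replicates and a gene with none, the genes with the summit had the longer 3′ UTR in 3 (Rab4, Rab33 and Rab40). In the other sets a gene without a peak had the longer one. Rab3c, with 7628 nt, and Rab9b, with 2897 nt, had no peak, whereas Rab3d had 2974 nt and Rab9 455 nt.

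Of 119 genes that load, switch or read Rab proteins, Rab3ip among them, 70 (58.8%, 49.4% to 67.8%) had an exonic summit in both replicates and 83 in either, beside 30.9% and 37.1% of all protein-coding genes. Of 34 exchange factors 24 had one in both replicates. The highest ranked were Hps4, a subunit of the exchange factor of Rab32 and Rab38, at 5.78-fold and 6.55-fold, and Rabif at 4.65-fold and 4.92-fold. Rab32 and Rab38 themselves had summits in both replicates, as did Hps1, the partner of Hps4. Of 39 GTPase-activating proteins 23 had one, led by Tbc1d24 at 4.32-fold and 5.01-fold and Tbc1d10b at 4.88-fold and 4.54-fold. Of 39 effectors 22 had one, led by Plekhm2, which links lysosomes to kinesin, at 10.3-fold and 9.94-fold, and Ehbp1l1 at 3.39-fold and 3.79-fold.

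The general machinery serves every Rab. Of 7 genes for prenylation and the membrane cycle only Chml, a Rab escort protein, had a summit in both replicates, at 6.08-fold and 7.24-fold on 38 and 37 IP reads. Its relative Chm and the acceptor gene Rabac1 had one in replicate 2 only. Rabggta and Rabggtb, the transferase subunits, had none. With 7 genes the interval was 0.361% to 57.9%, which holds the 30.9% of all protein-coding genes. In either replicate 3 of the 7 (42.9%) had a summit, beside 37.1% of all. Nothing is therefore read from the low count.

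The labelled cell type was looked at through markers. Of 10 genes of blood stem and progenitor cells 7 had a summit in both replicates (Gata2, Tal1, Runx1, Lmo2, Cd34, Meis1 and Spi1). Kit itself, Myb and Ptprc had none. Of 7 erythroid genes 4 had one (Klf1, Epor, Hbb-bt and Hba-a1), Tfrc had one in replicate 1 only, and Gata1 and Alas2 had none. Of 5 hepatocyte genes 2 had one (Apoa1 and Hnf4a), of 4 macrophage genes 1 (Csf1r) and of 4 endothelial genes 1 (Kdr). Beside the 30.9% of all protein-coding genes, the hepatocyte (40%), macrophage (25%) and endothelial (25%) shares are near the background. The erythroid share was 57.1% (18.4% to 90.1%), an interval that also holds 30.9%, and the blood share 70% (34.8% to 93.3%). With so few genes nothing is read from these lists about the cells present. A peak shows that a transcript was captured, not its level, and the part of other cells of the foetal liver in the Rab peaks was not tested.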

How the data were processed

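Peaks were called by the authors with MACS2 (version 2.1.1, nomodel option) on reads placed by HISAT2 on GRCm38, separately for each replicate, which gave 15635 and 14872 peaks. In the deposited lists the fold enrichment is the ratio of IP to background at the summit, after 1 is added to each. In replicates 1 and 2 the IP signal was 1 and 0.952 per IP read, and the background 0.874 and 1 per control read. Where background is low, folds are therefore lower than the ratios of the printed reads. Each peak also has its −log10 p-value and its −log10 q-value, as deposited. The deposited score of each peak was not used further. Call thresholds and the control library are not given in the sources used here. The lowest −log10 q was 1.31 and 1.30. Samples were grouped by the labels, which give total RNA for the IP and polyA RNA for the inputs.

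Summits (GRCm38, first base 1) were intersected with exons of the GENCODE M21 basic set, with Python 3.11.15, pandas 2.3.3 and samtools 1.23.1. Peaks were called shared at an overlap of at least 1 bp. Region and motif used the transcript with the longest coding sequence, for summits in 1 protein-coding gene only. IP reads and background were solved from the fold enrichment together with the p-value of a peak (100% of peaks matched, to within 0.000342 in −log10 p). Steps were tested on simulated data. Library totals are not known from the lists.

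Every member was named, and the 12 with the highest lower −log10 q of a shared peak, those with a peak in 1 replicate only and the 2 highest regulators of a class were described in full. The members and lists were chosen with earlier results of these data known. Alternatives changed the peak threshold, the gene assignment, the windows and the replicates used. Some genes of the lists are not reported here.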

Additional observations from a re-analysis of the deposited data

Results flagged for a closer look

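Some Rab peaks lay outside exons and entered no count above. In replicate 1 there were 4 summits in Rab introns, of Rab7b (8.51-fold on 11 IP reads), Rab37 (5.87-fold on 10), Rab27a (5.06-fold on 35) and Rab8b (3.69-fold on 22). In replicate 2 there was 1, of Rab44, at 8.59-fold on 17 IP reads. Of these, 0 overlapped a peak of the other replicate. Rab37, whose protein acts in regulated secretion, had no exonic peak.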

How the results depend on the processing

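The 32 Rab genes with a summit in both replicates became 20 at a minimum fold enrichment of 4, and the 70 regulator genes became 40. The share of all protein-coding genes at that fold was not computed. These counts therefore cannot be set beside the 30.9% found without the cut. The 12 Rab genes lost were Rab21, Rab28, Rab29, Rab31, Rab32, Rab35, Rab3d, Rab3ip, Rab4a, Rab5a, Rab8a and Rab9. At −log10 q of at least 3 Rab3ip and Rab5a were lost, at 5 also Rab21, and with summits in exons of 1 gene only Rab43. Over both replicates 82.8% of Rab peaks were shared, 79.6% at 50% reciprocal overlap, 77.4% with summits within 100 bp, 83.9% at −log10 q of 5 and 77.2% at a fold of 4. The stop codon share of 37.2% was 24.4% with 100 nt and 48.8% with 400 nt on either side, and the 3′ UTR share of 23.3% was 33.7% and 17.4%, 25% at −log10 q of 5 and 25.4% for shared peaks. GGAC lay near 54.7% of summits within 50 nt, 37.2% within 25 nt and 74.4% within 100 nt. Median fold fell from 4.76 to 4.07 with a background of at least 2 control reads. Wider windows hold more sequence by construction. The other causes were not tested. With 1 replicate left, 35 Rab genes in each case and 74 to 79 regulators had a summit, and stop codon shares were 33.3% to 40.9%. No paired analysis was possible because there was 1 group of 2 IP replicates and no test. Peaks on under 20 IP reads, as in Rab17, limit what a fold can show.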

Other observations

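Rab40b had no exonic peak, but a peak past its annotated 3′ end in both replicates, and these overlapped. The summits lay 1398 and 1373 nt past the end, at 4.80-fold and 6.19-fold, each on 8 IP reads. Its relative Rab40c had the peak near the stop codon described above.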
